A study of Mus musculus with 12 samples.

Results

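The 37 genes described here encode enzymes of cholesterol and fatty acid synthesis and the proteins that control or export cell sterol. They were chosen by gene symbol, and all 37 were found among the 24444 symbols of both bone marrow RNA sequencing tables. By role they were 7 genes of the mevalonate and isoprenoid steps, 11 of squalene and sterol ring synthesis, 5 of SREBP control and sterol transfer, 5 of fatty acid supply and synthesis, 6 of elongation and desaturation, and 3 of LXR signalling and sterol efflux. All 37 passed the filter on low counts in the main fit of each comparison.

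The study sequenced stranded mRNA libraries of bone marrow from C57BL/6 mice, in 4 groups of 3 libraries. The aged_KO group was marrow of Hopx-knockout mice labelled old, with an age of 18 weeks and no MN1. The aged_WT group was Hopx wild type with the same age and wording. The MN1_KO group was Hopx-knockout marrow with MN1 overexpression at 16 weeks, and the MN1_WT group was its Hopx wild-type counterpart at 16 weeks. Hopx is a small homeodomain protein that does not itself bind DNA, and MN1 is a transcriptional coregulator that acts as an oncogene in myeloid leukaemia. The labels do not say how the knockout was made, how MN1 was delivered or from which species it came, what share of the cells carried it, or whether hosts were transplanted. MN1 status as labelled, labelled age, deposited table and the level of Y-linked genes coincide, so these cannot be told apart in any comparison of MN1 with aged marrow. Nothing in the labels says that the 3 libraries of a group came from separate animals, so p-values measure the spread between these libraries, which may be technical.

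Library totals ran from 16544407 to 28409046 counts. Levels below are CPM after TMM scaling, that is, counts scaled to library size with TMM factors, and per-library values follow the order of replicates 3, 9 and 10 in aged_KO, 1, 6 and 7 in aged_WT, 5, 7 and 8 in MN1_KO, and 2, 3 and 4 in MN1_WT. Hopx read 0, 0 and 0.141 CPM in aged_KO against 15, 35.1 and 15.3 CPM in aged_WT, and 2.84, 3.11 and 2.92 CPM in MN1_KO against 27, 11.8 and 25.3 CPM in MN1_WT. Mn1 read 22.2 to 41 CPM in MN1_KO, but in the libraries labelled MN1_WT it read 0.383, 30.5 and 0.158 CPM. The libraries labelled MN1_WT replicates 2 and 4 therefore went against their label, since aged_WT marrow read 0.458 to 1.25 CPM. Their summed Y-linked genes were at 234 and 227 CPM, against 68.5 CPM in replicate 3, 8.08 to 19.2 CPM in MN1_KO and 0 to 0.153 CPM in the aged libraries. Xist read 17.6 and 2.37 CPM in them, against 3351 CPM in replicate 3, 587 to 4010 CPM in MN1_KO and 485 to 902 CPM in the aged libraries. Sex-linked level therefore differed both between the MN1 groups and between the MN1 and aged libraries. Group names below are those of the labels, and the main counts and calls whose means use the libraries labelled MN1_WT replicates 2 and 4 are also given without them.

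Cells make cholesterol from acetyl-CoA by way of mevalonate, farnesyl diphosphate, squalene and lanosterol. When membranes run low in sterol, Scap carries the SREBP transcription factors to the Golgi, where they are cleaved, and the released fragments switch on sterol and fatty acid synthesis genes, while Insig proteins hold Scap back when sterol is plentiful. Oxysterols, made when sterol is plentiful, activate the nuclear receptor LXR, which raises the exporters Abca1 and Abcg1 as well as Srebf1 and Scd1. Dividing marrow progenitors draw on both pathways for new membrane.

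Promoters are shown for 5 of the sterol genes whose knockout effect differed between the experiments below, and for Fads2, a desaturase gene that fell in aged_KO marrow. They are the 250 bases before an annotated start on the gene's own strand, from RefSeq on build GRCm38.p6, which has the coordinates of mm10. For Hsd17b7, 37 of these bases lie inside the gene's annotated span and the other 213 are shown. Capitals mark matches, on either strand, to CCAAT (read by NF-Y, a partner of SREBP), to the E-box CACGTG and to the sterol regulatory element letters TCACNCCAC.
Hmgcs1, chr13:119690101-119690350, plus strand: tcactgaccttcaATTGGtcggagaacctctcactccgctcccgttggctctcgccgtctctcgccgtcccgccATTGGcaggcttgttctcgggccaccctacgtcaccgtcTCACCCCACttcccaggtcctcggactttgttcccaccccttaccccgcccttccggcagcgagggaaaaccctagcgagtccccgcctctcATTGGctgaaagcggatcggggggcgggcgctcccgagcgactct
Msmo1, chr8:64733579-64733828, minus strand: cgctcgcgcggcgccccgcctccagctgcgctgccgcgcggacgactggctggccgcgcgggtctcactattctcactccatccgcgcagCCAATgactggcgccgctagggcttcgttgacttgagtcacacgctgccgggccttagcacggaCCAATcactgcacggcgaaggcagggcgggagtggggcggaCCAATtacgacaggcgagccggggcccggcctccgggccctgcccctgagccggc
Hsd17b7, chr1:169969243-169969455, minus strand: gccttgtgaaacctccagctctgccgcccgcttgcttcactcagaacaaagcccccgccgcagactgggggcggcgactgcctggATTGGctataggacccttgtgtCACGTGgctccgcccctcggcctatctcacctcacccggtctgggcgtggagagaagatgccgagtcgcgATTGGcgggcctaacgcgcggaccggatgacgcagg
Insig1, chr5:28071162-28071411, plus strand: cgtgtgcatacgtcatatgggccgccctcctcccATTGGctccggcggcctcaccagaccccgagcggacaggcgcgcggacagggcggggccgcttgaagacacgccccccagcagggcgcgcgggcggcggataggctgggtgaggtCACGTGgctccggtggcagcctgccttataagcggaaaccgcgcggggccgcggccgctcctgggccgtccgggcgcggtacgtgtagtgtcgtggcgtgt
Srebf2, chr15:82147019-82147268, plus strand: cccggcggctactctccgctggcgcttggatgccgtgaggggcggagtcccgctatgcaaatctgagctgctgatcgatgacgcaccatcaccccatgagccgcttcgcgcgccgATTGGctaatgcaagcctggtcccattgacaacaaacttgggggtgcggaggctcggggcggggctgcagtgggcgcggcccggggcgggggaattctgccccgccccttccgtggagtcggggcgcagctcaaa
Fads2, chr19:10101504-10101753, minus strand: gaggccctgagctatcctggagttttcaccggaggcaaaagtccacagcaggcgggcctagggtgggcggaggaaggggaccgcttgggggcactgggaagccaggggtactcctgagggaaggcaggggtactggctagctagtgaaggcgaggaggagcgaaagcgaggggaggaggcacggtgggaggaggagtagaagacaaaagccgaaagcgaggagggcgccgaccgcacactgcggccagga
Hmgcs1 held 3 CCAAT matches and 1 sterol regulatory element match, whose first base lay at -137 from the start. Msmo1 held 3 CCAAT matches and Hsd17b7 held 2, Insig1 and Srebf2 held 1 each, and the Fads2 stretch held 0. Hsd17b7 and Insig1 each also held 1 E-box. Promoters of 29 members matched, giving 37 windows from 250 bases before to 50 after a start. CCAAT was present in 62.2% of the member windows, against 37.4% of all 32851 promoter windows. By member, 22 of the 29 held it, among them 8 of the 9 with a window that rose in aged_KO. Me1, which like Fads2 fell in aged_KO, also held it, as did Pmvk, Mvk and Cyp51, which did not pass there. The Sp1 box GGGCGG was present in 70.3% against 35.7%, and CACGTG in 21.6% against 7.15%. TCACNCCAC was present in 1 of the 37 member windows, that of Hmgcs1 (2.7%, against 1.24% of all windows). Only exact matches to these letters were counted, so sterol regulatory elements that differ from them by a base are not covered. Matches of different motifs shared no bases in any member window (0 pairs). Fdps, Fdft1, Sqle, Stard4, Scd1, Scd2, Fads1 and Abcg1 had no window.

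Per transcript length, on the authors' TPM scale averaged over 12 libraries, the highest levels were those of Acly (95.1), which makes cytosolic acetyl-CoA from citrate, and Fdps (82.2), which makes farnesyl diphosphate. The lowest were those of the exporter Abca1 (2.69) and the lanosterol synthase Lss (3.35). The order differed between groups: in aged_KO Fdps (119) stood above Acly (98.2), and in both aged groups Me1 was the lowest, at a mean of 0.107 in aged_KO and 0.423 in aged_WT. In CPM, Acly was also the highest member, at 316, 368 and 334 in aged_KO against 245, 270 and 239 in aged_WT, and 232, 261 and 196 in MN1_KO against 256, 238 and 284 in MN1_WT. The lowest by mean CPM was the sterol reductase Tm7sf2, at 5.11, 3.74 and 6.7 in aged_KO against 4.32, 5.43 and 4.33 in aged_WT, and 4.51, 5.03 and 9.04 in MN1_KO against 3.64, 4.45 and 5.34 in MN1_WT. Between libraries the steadiest members were Acat2, Acss2, Scap and Srebf1, whose highest library was 1.5, 1.51, 1.54 and 1.6 times the lowest. The most variable with over 50 counts in each library were Scd1, at 47.2 times, Hsd17b7 at 9.92 times and Elovl6 at 9.24 times. The malic enzyme Me1 ranged wider still, with 1 to 1493 counts per library. The heatmap of all members by library shows Hmgcs1, Fdps, Msmo1 and Hsd17b7 above the aged_WT mean in every aged_KO library, and Msmo1, Hsd17b7, Insig1 and Srebf2 below it in every MN1_KO library.

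**Figure D1:**
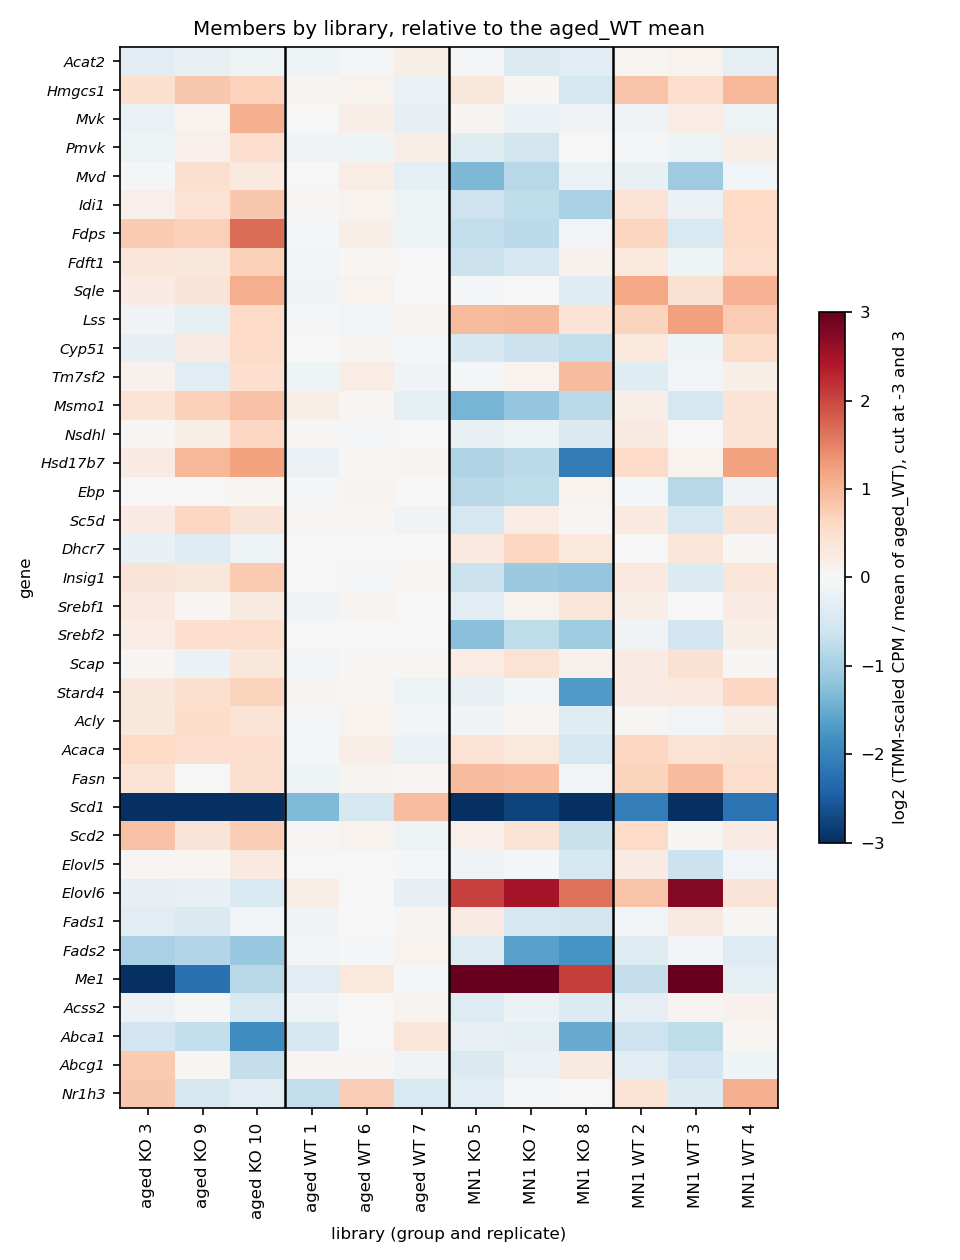
Colour gives log2 of TMM-scaled CPM over the aged_WT mean, cut at -3 and 3. Rows are the 37 members, by role except that Me1 and Acss2 stand after Fads2. Columns are the 12 libraries, by group and replicate. Scd1 is dark blue in all aged_KO and MN1_KO libraries, and Me1 and Elovl6 are red in MN1_KO and in MN1_WT replicate 3.

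The first comparison sets Hopx-knockout against wild-type marrow without MN1. In aged_KO marrow, 14 of the 37 members were higher than in aged_WT (edgeR quasi-likelihood test, adjusted p under 0.05, where 15.6% of 12771 genes were higher), and 3 were lower (15.8% of all genes). The median log2 fold change of the members was 0.24, against -0.02 over all genes. The members that rose were spread over the mevalonate, sterol ring, SREBP control and fatty acid synthesis steps and included the desaturase Scd2, and the 3 that fell were Scd1, Fads2 and Me1. Groups did not overlap in 16 members that were higher (22.5% of all genes) and in 6 that were lower (25.8%). In bulk marrow a change in how many cells of a type were present and a change in RNA per cell cannot be told apart.

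Of the 7 mevalonate and isoprenoid genes, Hmgcs1, Idi1 and Fdps rose with TMM scaling, and Hmgcs1 and Fdps also on library totals alone. Hmgcs1, the synthase that feeds the mevalonate pathway, was at 46.3, 57.7 and 53.8 CPM in aged_KO, against 34.9, 35.6 and 28.8 CPM in aged_WT. Its lowest aged_KO library lay above every aged_WT library, and it was 1.61-fold higher (log2 fold change 0.68 ± 0.12 SE, adjusted p = 0.00432). Fdps was at 88, 84.5 and 164 CPM in aged_KO, against 50.1, 57.6 and 46.6 CPM in aged_WT. Replicate 10 stood above the other aged_KO libraries, and the groups did not overlap (2.19-fold, log2 fold change 1.13 ± 0.25, adjusted p = 0.0133). Idi1, the isopentenyl diphosphate isomerase, was at 38.7, 47.3 and 61.3 CPM in aged_KO against 35.6, 37.8 and 31.4 CPM in aged_WT (log2 fold change 0.50 ± 0.16, adjusted p = 0.0383). Its groups were close, and it passed in only 1 of the 6 fits that each left out 1 library. The kinases Mvk (0.43 ± 0.30) and Pmvk (0.20 ± 0.18), the decarboxylase Mvd (0.27 ± 0.18) and the thiolase Acat2 (-0.22 ± 0.13) did not pass.

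Of the 11 squalene and sterol ring genes, 5 rose with TMM scaling, and on library totals Msmo1 and Hsd17b7 rose and Dhcr7 fell. The methylsterol oxidase Msmo1 was at 46.8, 57.2 and 64.6 CPM in aged_KO, against 39.7, 36.6 and 28.8 CPM in aged_WT (1.62-fold, log2 fold change 0.70 ± 0.15, adjusted p = 0.00851). Hsd17b7, a ketosteroid reductase of the C4 demethylation steps, was at 11.4, 19 and 22.1 CPM in aged_KO against 8.47, 10 and 10.1 CPM in aged_WT (log2 fold change 0.88 ± 0.23, adjusted p = 0.0172). In both genes every aged_KO library was above every aged_WT library, with replicate 3 the lowest of the aged_KO. Sqle, the squalene epoxidase, was at 14.4, 15.9 and 25.9 CPM in aged_KO against 11.2, 13 and 12.1 CPM in aged_WT (log2 fold change 0.63 ± 0.21, adjusted p = 0.0463). Replicate 10 stood far above the wild type, and Sqle passed in 1 of the 6 fits that left out 1 library. Squalene synthase Fdft1 averaged 29.6 ± 4.54 CPM in aged_KO against 21.3 ± 1.1 CPM in aged_WT (SD, n = 3 each; edgeR adjusted p = 0.0199), and the desaturase Sc5d 37.6 ± 5.02 CPM in aged_KO against 27.9 ± 1.67 CPM in aged_WT (edgeR adjusted p = 0.0234). The 6 that did not pass were Lss (0.12 ± 0.22), Cyp51 (0.24 ± 0.19), Tm7sf2 (0.14 ± 0.24), Nsdhl (0.32 ± 0.16), Ebp (0.04 ± 0.09) and the last enzyme of one branch, Dhcr7 (-0.23 ± 0.12). Summed over the 18 mevalonate and sterol enzymes, levels were 473, 535 and 684 CPM in aged_KO, against 403, 426 and 385 CPM in aged_WT.

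Among the SREBP control genes, Insig1, Srebf2 and Stard4 rose with TMM scaling, and none of the 3 passed on library totals. Srebf2, the SREBP gene most tied to sterol synthesis, was at 148, 179 and 183 CPM in aged_KO, against 125, 128 and 127 CPM in aged_WT (log2 fold change 0.44 ± 0.11, adjusted p = 0.0139). Insig1, itself an SREBP target, was at 31.9, 30.9 and 42.2 CPM in aged_KO against 24.3, 23.7 and 25.3 CPM in aged_WT (log2 fold change 0.53 ± 0.13, adjusted p = 0.0163). Stard4, a carrier of cholesterol between membranes, was at 22.2, 24.4 and 27.7 CPM in aged_KO against 18.5, 18.3 and 15.7 CPM in aged_WT (log2 fold change 0.51 ± 0.13, adjusted p = 0.0156). In all 3 genes the groups were apart. Srebf1, the SREBP gene more tied to fatty acid synthesis and LXR, was at 76.6, 63.9 and 75.1 CPM in aged_KO against 58.1, 66.3 and 62.9 CPM in aged_WT. Its groups overlapped and it did not pass (log2 fold change 0.21 ± 0.10, adjusted p = 0.146), nor did Scap (0.10 ± 0.13).

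The fatty acid genes split. Acaca, the carboxylase that commits acetyl-CoA to fatty acids, was at 70.3, 66.2 and 66.5 CPM in aged_KO, against 45.8, 53.8 and 40.8 CPM in aged_WT, and rose (log2 fold change 0.55 ± 0.11, adjusted p = 0.0077). Acly rose as well (log2 fold change 0.45 ± 0.11, adjusted p = 0.0142), with its aged_KO libraries above those of aged_WT. On library totals Acaca passed and Acly did not (edgeR adjusted p = 0.04 and 0.0572). Acly passed in 4 of the 6 fits that left out 1 library. Fatty acid synthase Fasn averaged 94.6 ± 15.8 CPM in aged_KO against 75.7 ± 5.83 CPM in aged_WT (SD, n = 3 each), overlapped and did not pass (edgeR adjusted p = 0.0802), and the acetate ligase Acss2 gave -0.20 ± 0.14. Me1, which makes NADPH for fatty acid synthesis, read 0.0602, 0.215 and 0.564 CPM in aged_KO against 0.795, 1.26 and 0.967 CPM in aged_WT, from 1, 5 and 8 counts in aged_KO against 14, 26 and 19 counts in aged_WT. It was low in all 6 libraries and lower in aged_KO (log2 fold change -1.90 ± 0.56, adjusted p = 0.029), and passed in 2 of the 6 fits that left out 1 library.

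The desaturases moved in different directions. Scd1, a stearoyl-CoA desaturase, was at 3.31, 8.25 and 7.13 CPM in aged_KO, against 27.7, 50.2 and 132 CPM in aged_WT. The aged_WT libraries themselves spread widely, yet the lowest of them stood above every aged_KO library, and Scd1 was 11-fold lower (log2 fold change -3.46 ± 0.72, adjusted p = 0.019), which passed in 3 of the 6 fits that left out 1 library. Scd2, its neighbour on chromosome 19, was at 190, 135 and 171 CPM in aged_KO against 105, 111 and 93.3 CPM in aged_WT, and rose (log2 fold change 0.69 ± 0.13, adjusted p = 0.00563). The pair are similar in sequence, and how the authors' counting divided reads between them is uncertain. Fads2, the delta-6 desaturase of polyunsaturated fatty acids, was at 7.88, 8.33 and 7.06 CPM in aged_KO against 14.5, 15.1 and 16.5 CPM in aged_WT. It was the member with the smallest p, tight in both groups and 1.96-fold lower in aged_KO (log2 fold change -0.97 ± 0.14, adjusted p = 0.00183). Its neighbour Fads1, the delta-5 desaturase, gave -0.26 ± 0.13, and the elongases gave 0.15 ± 0.10 (Elovl5) and -0.29 ± 0.15 (Elovl6), none of them past the threshold, although edgeR called Fads1 and Elovl6 lower when counts were scaled to library totals alone.

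None of the 3 LXR and efflux genes passed. Abca1, which loads cholesterol onto apolipoproteins, was at 15.8, 14.1 and 6.49 CPM in aged_KO, against 16.8, 23.8 and 30 CPM in aged_WT. The groups did not overlap, and the difference missed the threshold in edgeR (log2 fold change -0.93 ± 0.35, adjusted p = 0.0802) and passed it in DESeq2 (-0.91, adjusted p = 0.014). Abcg1 was at 82.6, 50.2 and 29.4 CPM in aged_KO against 50.2, 49.2 and 44.7 CPM in aged_WT, so the knockout libraries lay on both sides of the wild type (log2 fold change 0.19 ± 0.35). Nr1h3, the LXR alpha gene, averaged 5.62 ± 3 CPM in aged_KO against 5.18 ± 3.01 CPM in aged_WT (SD, n = 3 each).

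Without any 1 library, 9 to 15 members passed (18.6 to 35.2% of all genes), and Hmgcs1, Fdps, Msmo1, Acaca, Scd2 and Fads2 passed in every such fit. On library totals without TMM, an alternative chosen after seeing the data, 6 members were higher (8.19% of all genes) and 6 lower (26.5%), and the median of all genes moved to -0.20. When all 12 libraries set the spread, Scd1 alone passed (edgeR adjusted p = 0.0263), where 4.18% of all genes were lower and 1.69% higher.

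Markers of several marrow cell types differed between the groups, where 15.6% of all genes were higher and 15.8% lower in aged_KO. Neutrophil markers summed to 120479 to 158578 CPM in aged_KO against 83443 to 112128 CPM in aged_WT (10 of 14 higher), and B cell markers to 29.7 to 45.9 CPM in aged_KO against 466 to 871 CPM in aged_WT (11 of 11 lower), with Vpreb1, Rag1 and Rag2 at 0 in at least 1 library. Mitosis markers summed to 3507 to 3575 CPM in aged_KO against 2548 to 2944 CPM in aged_WT (6 of 12 higher). Erythroid markers fell in 7 of 10 (321 to 621 CPM in aged_KO against 805 to 1861 CPM in aged_WT) and T and NK cell markers in 9 of 9 (24.6 to 38.6 CPM in aged_KO against 100 to 170 CPM in aged_WT). Monocyte and macrophage markers summed to 2988 to 3397 CPM in aged_KO against 2546 to 3803 CPM in aged_WT (3 of 11 lower). Adipoq, a fat cell marker, was at 0.241, 1.29 and 0.423 CPM in aged_KO against 4.72, 5.68 and 4.58 CPM in aged_WT. Pparg, of the same list, was at 18.1, 4.25 and 4.73 CPM in aged_KO against 6.87, 9.41 and 4.38 CPM in aged_WT. Of 3 adipocyte markers tested, 2 were lower. The list of 7 summed to 9.1 to 27.3 CPM in aged_KO against 18.9 to 27.3 CPM in aged_WT, with Plin1, Lep and Cidec at 0 in at least 1 library. The part of these cell types in the changes of the members was not tested.

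**Figure D2:**
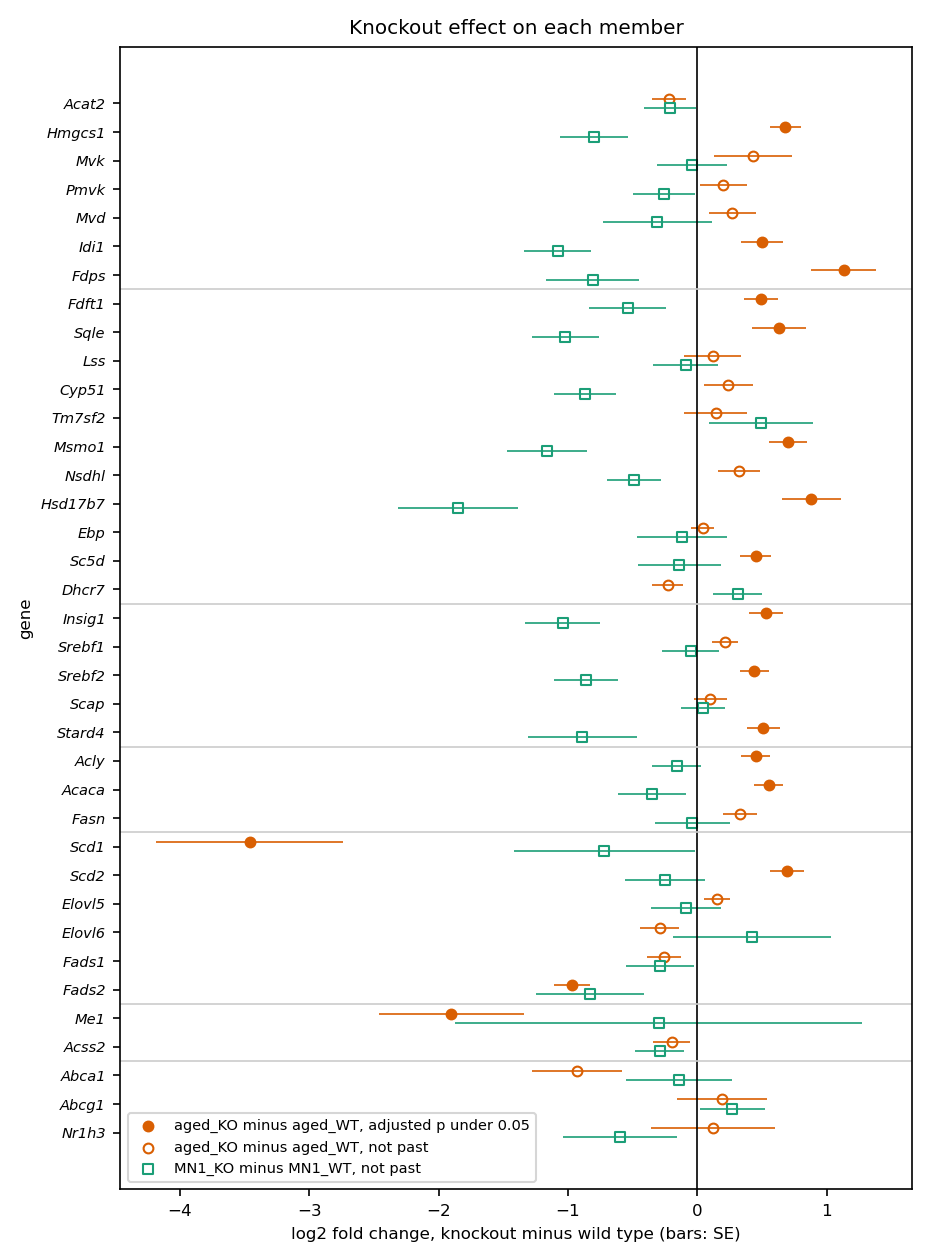
The x axis gives the log2 fold change of Hopx knockout over wild type and its SE for each member. Rows are by role, except that Me1 and Acss2 stand after Fads2. Circles give aged_KO minus aged_WT (filled where the edgeR adjusted p was under 0.05) and squares MN1_KO minus MN1_WT. In the aged libraries 14 filled circles lie right of 0 and 3 left of it, and none of the squares passed. On library totals without TMM, which are not drawn, 6 members were higher and 6 lower in aged_KO.

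Hopx-knockout and wild-type libraries labelled as MN1 were compared next, although Mn1 was high in only 1 of the 3 wild-type libraries. Sterol genes such as Idi1, Msmo1 and Hsd17b7 were at lower values in MN1_KO than in MN1_WT, but 0 of the 37 members passed in edgeR, as did 0 of 13525 genes (0%). At an unadjusted p under 0.05 there were 8 members (10% of all genes, 1353), each of them lower. DESeq2 called 6 members lower (2.56% of all genes) and 0 higher (1.62%), and limma-trend called 0 members, among 6 genes in all. Groups did not overlap in 11 members, all lower in MN1_KO (8.64% of all genes were lower in that way, and 6.94% higher). The median log2 fold change was -0.29 over members and 0.03 over all genes. Set against MN1_WT replicate 3 alone, every MN1_KO library was lower in 20 members (26.7% of all genes) and higher in 6 (17%), and the median was -0.24 over members and 0.02 over all genes.

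Idi1 was at 22.9, 20.6 and 17.9 CPM in MN1_KO, against 47.1, 30.9 and 53.2 CPM in MN1_WT (log2 fold change -1.08 ± 0.26, adjusted p = 0.244). Msmo1 was at 13.3, 15.6 and 20.1 CPM in MN1_KO against 40.2, 24.3 and 46.4 CPM in MN1_WT (log2 fold change -1.16 ± 0.31, adjusted p = 0.284). In both genes the library labelled MN1_WT replicate 3, the one of its group in which Mn1 was high, was the nearest to MN1_KO. Hsd17b7 was at 5.11, 5.5 and 2.23 CPM in MN1_KO against 14.3, 10.3 and 22 CPM in MN1_WT (log2 fold change -1.85 ± 0.46, adjusted p = 0.273). Sqle was at 11.7, 12.1 and 9.47 CPM in MN1_KO against 26.9, 16.7 and 24.8 CPM in MN1_WT, and Insig1 at 15.6, 11.3 and 11 CPM in MN1_KO against 29.7, 18.3 and 31.2 CPM in MN1_WT. These 3 genes showed the same order, with replicate 3 lowest of the MN1_WT libraries and above every MN1_KO library. Srebf2 was at 53.1, 75.5 and 60.6 CPM in MN1_KO against 118, 85.6 and 144 CPM in MN1_WT, and Hmgcs1 at 41.6, 33.7 and 23 CPM in MN1_KO against 60.2, 47.7 and 65.8 CPM in MN1_WT, both with the groups apart. Fdps, at 31, 29.9 and 48.8 CPM in MN1_KO against 79.9, 37.7 and 77 CPM in MN1_WT, overlapped. The 18 mevalonate and sterol enzymes summed to 307, 316 and 349 CPM in MN1_KO, against 516, 373 and 552 CPM in MN1_WT.

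The other key members overlapped or were close. Scd2 was at 115, 137 and 65.1 CPM in MN1_KO against 154, 105 and 123 CPM in MN1_WT, and Acaca at 63.6, 57.9 and 32.8 CPM in MN1_KO against 71.8, 63 and 64.4 CPM in MN1_WT. Both overlapped between the groups. Stard4 was at 15.1, 16.6 and 5.37 CPM in MN1_KO against 20.7, 21.5 and 27.1 CPM in MN1_WT, and Fads2 at 11.7, 4.95 and 4.41 CPM in MN1_KO against 11.9, 14.5 and 11.8 CPM in MN1_WT. Those 2 did not overlap, Fads2 narrowly. Srebf1 was at 50, 66.9 and 79.8 CPM in MN1_KO against 71.3, 61.9 and 73.8 CPM in MN1_WT. Abca1 was at 20.2, 19.5 and 8.29 CPM in MN1_KO against 15.2, 13.8 and 24.3 CPM in MN1_WT, and Abcg1 at 35.3, 42.2 and 57.5 CPM in MN1_KO against 37.7, 32.2 and 44.1 CPM in MN1_WT. These 3 overlapped.

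Without the library labelled MN1_WT replicate 3, edgeR called Idi1, Sqle, Cyp51, Msmo1, Insig1 and Srebf2 lower and Me1 higher (log2 fold change 4.28 ± 0.82, adjusted p = 0.0432, against -0.30 ± 1.57 with all libraries), where 3.19% of all genes were lower and 3.3% higher. Without replicates 2 and 4, 0 members passed and 0 reached an unadjusted p under 0.05, the lone MN1_WT library being assumed to vary as the other group did. Mitosis markers summed to 1683, 1578 and 1663 CPM in MN1_KO against 3236, 1818 and 3533 CPM in MN1_WT, with replicate 3 again the lowest of MN1_WT. T and NK cell markers summed to 49.9, 67.8 and 87.4 CPM in MN1_KO against 152, 96.7 and 241 CPM in MN1_WT (median log2 fold change -1.43), so the groups did not overlap. B cell markers summed to 41.8 to 57.4 CPM in MN1_KO against 346, 50.6 and 219 CPM in MN1_WT (median -3.39), so only replicate 3 lay within the range of MN1_KO. Neutrophil markers summed to 22350 to 91862 CPM in MN1_KO against 34842 to 92940 CPM in MN1_WT, monocyte and macrophage markers to 897 to 2327 CPM in MN1_KO against 901 to 2478 CPM in MN1_WT, and erythroid markers to 537 to 1143 CPM in MN1_KO against 640 to 1455 CPM in MN1_WT. Adipocyte markers summed to 12.8, 18.8 and 26.1 CPM in MN1_KO against 31.7, 14.4 and 36.1 CPM in MN1_WT. In edgeR 0 markers of any of these lists passed, as with all genes, and the part of these cells in the sterol values was not tested.

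The knockout effects of the 2 experiments were then compared directly, as the effect in MN1 marrow minus that in aged marrow. In 8 of the 37 members the effect was lower in MN1 marrow (edgeR, 1.92% of 13937 genes), and in 0 it was higher (1.41%). The 8 were Hmgcs1, Idi1 and Fdps of the mevalonate and isoprenoid steps, Sqle, Msmo1 and Hsd17b7 of the sterol ring steps, and Insig1 and Srebf2 of SREBP control. All 14 members that rose in aged_KO had a negative log2 fold change in MN1_KO, where 68.9% of all 1978 genes that rose in aged_KO and were tested in MN1 marrow did. Without MN1_WT replicates 2 and 4 this held for 10 of the 14 (37.5% of all such genes), the exceptions being Sc5d (0.53), Scd2 (0.06), Fdps (0.02) and Acly (0.00). Among the 8, the difference was largest for Hsd17b7 (-2.73 ± 0.54, adjusted p = 0.0278), followed by Fdps (-1.95 ± 0.47, adjusted p = 0.0499) and Msmo1 (-1.86 ± 0.35, adjusted p = 0.0233). Sqle differed by -1.67 ± 0.35 (adjusted p = 0.035), Idi1 by -1.58 ± 0.31 (adjusted p = 0.0277) and Insig1 by -1.58 ± 0.32 (adjusted p = 0.0285). Hmgcs1 differed by -1.49 ± 0.30 (adjusted p = 0.028) and Srebf2 by -1.30 ± 0.27 (adjusted p = 0.0339). The plot of the 8 members, which were chosen by this contrast, shows each with the aged_KO mean above aged_WT and the MN1_KO mean below MN1_WT.

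Scd1 gave a difference of 2.75 ± 1.00 and Scd2 of -0.95 ± 0.36, and neither passed (adjusted p = 0.141 and 0.154). Among the other members, Stard4 (-1.40 ± 0.46), Cyp51 (-1.11 ± 0.32), Fdft1 (-1.03 ± 0.32) and Acaca (-0.90 ± 0.30) had the largest negative differences that missed the threshold. Srebf1 gave -0.28 ± 0.23, and Scap (-0.07 ± 0.22) and Fads2 (0.13 ± 0.45) differed from 0 by less than their SE.

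Leaving out 1 library gave 0 to 19 members (0.372 to 23.6% of all genes), and 0 of the 8 passed in every such fit. The differences themselves stayed negative, from -2.98 to -2.42 for Hsd17b7, -2.11 to -1.69 for Msmo1 and -1.51 to -1.14 for Srebf2. Without MN1_WT replicates 2 and 4 they were smaller, from -2.17 ± 0.56 for Hsd17b7 to -0.90 ± 0.26 for Srebf2 (edgeR adjusted p = 0.177 to 0.378 over the 8). No member passed without MN1_WT replicate 2 or 4, without both, without aged_KO replicate 9 or 10, or without any 1 aged_WT library, and 16 were lower (9.99% of all genes) and 3 higher (13.6%) without MN1_WT replicate 3. On library totals 5 were lower (1.57% of all genes), with the median of all genes at 0.28 against 0.08. DESeq2 called 14 lower (7% of all genes) and 1 higher (5.09%).

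**Figure D3:**
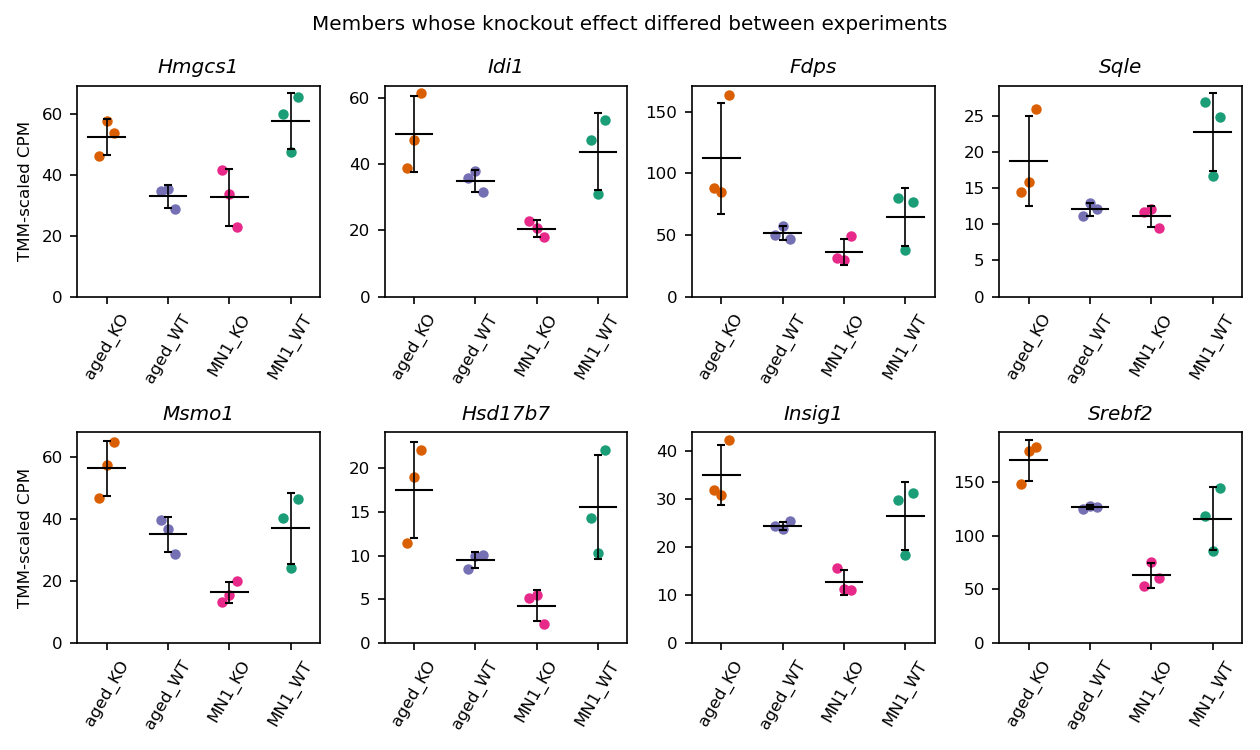
Each panel gives TMM-scaled CPM (linear axis from 0) of 1 of the 8 members whose knockout effect differed between experiments, with points for single libraries and lines for the mean and SD of 3 libraries in aged_KO, aged_WT, MN1_KO and MN1_WT. In all 8 panels the aged_KO mean lies above aged_WT and the MN1_KO mean below MN1_WT. The 8 were chosen by this difference in the same libraries, so the pattern is no separate evidence for it. Mn1 was low in MN1_WT replicates 2 and 4, and Fdps overlaps between the MN1 groups.

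Hopx-knockout marrow with MN1 was then set against Hopx-knockout marrow without it, a comparison whose means do not use the libraries labelled MN1_WT, which enter only through the shared spread, filter and scaling. In MN1_KO, 14 members were lower than in aged_KO (edgeR, 16.8% of 13937 genes) and 3 were higher (21.1%). The groups did not overlap in 17 lower members (22.4% of all genes) and 3 higher ones (27.7%). The median was -0.46 over members and 0.08 over all genes. The comparison shares the aged_KO libraries with the knockout comparison without MN1, so the 2 sets of values are not independent. On library totals 6 members were lower (9.74% of all genes) and 5 higher (38.4%), with the median of all genes at 0.46.

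Srebf2 was at 53.1, 75.5 and 60.6 CPM in MN1_KO, against 148, 179 and 183 CPM in aged_KO, and had the smallest p of the members (2.7-fold lower, log2 fold change -1.43 ± 0.20, adjusted p = 0.00138). Msmo1 was at 13.3, 15.6 and 20.1 CPM in MN1_KO against 46.8, 57.2 and 64.6 CPM in aged_KO (3.44-fold lower, log2 fold change -1.78 ± 0.25, adjusted p = 0.00161). Insig1 was at 15.6, 11.3 and 11 CPM in MN1_KO against 31.9, 30.9 and 42.2 CPM in aged_KO (2.76-fold lower, log2 fold change -1.47 ± 0.23, adjusted p = 0.00219). In these 3 genes the highest MN1_KO library lay at or below 75.5, 20.1 and 15.6 CPM, under every aged_KO library. Idi1 (-1.26 ± 0.22, adjusted p = 0.0034), Hsd17b7 (-2.03 ± 0.39, adjusted p = 0.00468) and Fdps (-1.62 ± 0.34, adjusted p = 0.00642) fell as well. These 6 fell under library totals too and passed without each of the 12 libraries in turn. Hmgcs1 (-0.68 ± 0.21), Mvd (-0.98 ± 0.33), Fdft1 (-0.77 ± 0.23), Sqle (-0.76 ± 0.25), the lanosterol demethylase Cyp51 (-0.84 ± 0.22), the sterol dehydrogenase Nsdhl (-0.57 ± 0.19), Acly (-0.56 ± 0.14) and Stard4 (2-fold lower) passed with all libraries (adjusted p = 0.013 to 0.038), and each of these 8 lost its call without at least 1 library and on library totals.

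The 3 that rose were Elovl6, Me1 and Dhcr7. Elovl6, which elongates C16 fatty acids, was at 72.2, 97.7 and 53.8 CPM in MN1_KO, against 14.6, 14.9 and 12.6 CPM in aged_KO (5.3-fold, log2 fold change 2.41 ± 0.52, adjusted p = 0.00725). Me1 was at 17.4, 20.3 and 4.23 CPM in MN1_KO against 0.0602, 0.215 and 0.564 CPM in aged_KO (log2 fold change 5.69 ± 1.69, adjusted p = 0.0243), and passed in 7 of the 12 fits that left out 1 library. Dhcr7 was at 23.8, 29.9 and 24.4 CPM in MN1_KO against 16.8, 14.9 and 17.6 CPM in aged_KO (log2 fold change 0.66 ± 0.15, adjusted p = 0.00929). In each of the 3 genes every MN1_KO library was above every aged_KO library. Scd1 was as low in MN1_KO, at 3.68, 10.1 and 7.07 CPM, as in aged_KO at 3.31, 8.25 and 7.13 CPM (log2 fold change 0.15 ± 0.71).

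Without any 1 library, 8 to 21 members passed (17.7 to 52% of all genes), the fewest without aged_KO replicate 9 and the most without MN1_WT replicate 3. Neutrophil markers were lower in MN1_KO in 10 of 14 (22350 to 91862 CPM in MN1_KO against 120479 to 158578 CPM in aged_KO) and mitosis markers in 8 of 12 (1578 to 1683 CPM in MN1_KO against 3507 to 3575 CPM in aged_KO). Monocyte and macrophage markers were lower in 4 of 11 and higher in 2 (897 to 2327 CPM in MN1_KO against 2988 to 3397 CPM in aged_KO), and T and NK cell markers were higher in 5 of 9 (49.9 to 87.4 CPM in MN1_KO against 24.6 to 38.6 CPM in aged_KO). Erythroid markers were higher in 2 of 10 and lower in 1 (537 to 1143 CPM in MN1_KO against 321 to 621 CPM in aged_KO), and B cell markers higher in 2 of 11 and lower in 1 (41.8 to 57.4 CPM in MN1_KO against 29.7 to 45.9 CPM in aged_KO). Of all genes, 21.1% were higher and 16.8% lower, shares that the erythroid and B cell calls did not exceed. Of 4 adipocyte markers tested, 1 was higher and 1 lower, and the list of 7 summed to 12.8 to 26.1 CPM in MN1_KO against 9.1 to 27.3 CPM in aged_KO. The part of all these cell types in the sterol values was not tested.

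**Figure D4:**
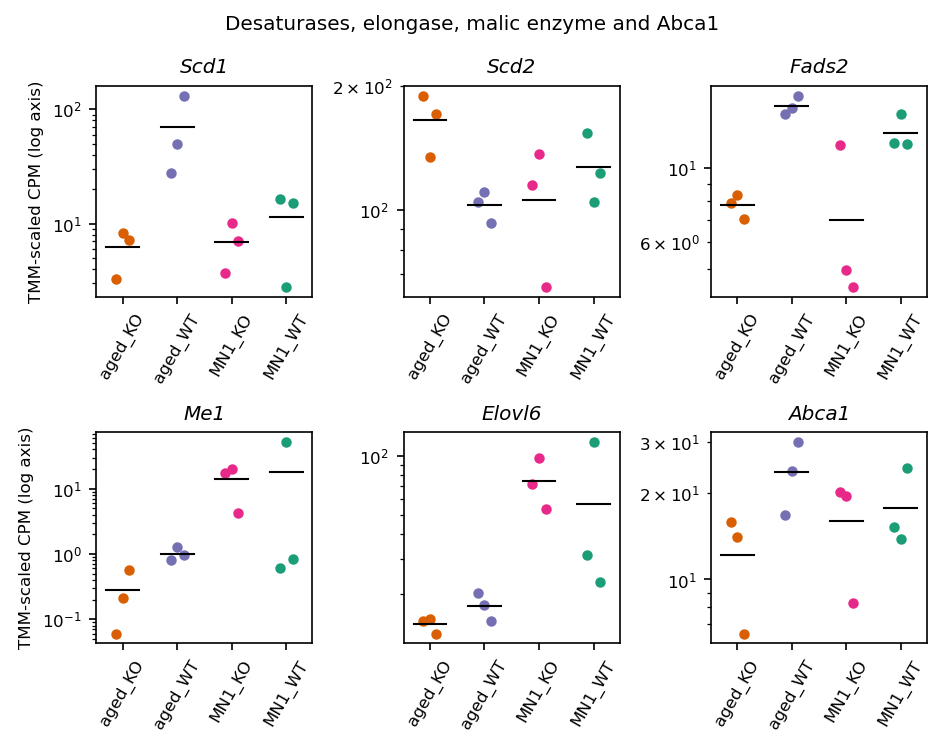
Each panel gives TMM-scaled CPM on a log axis for Scd1, Scd2, Fads2, Me1, Elovl6 or Abca1, with points for single libraries and a line for the mean of 3 libraries in aged_KO, aged_WT, MN1_KO and MN1_WT. Scd1 is below every aged_WT library in both knockout groups and in MN1_WT, where replicate 3 is the lowest of all 12 libraries, and Me1 and Elovl6 are high in MN1_KO and in 1 of the 3 MN1_WT libraries.

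The libraries labelled MN1_WT, of which only replicate 3 had high Mn1, were also set against aged_WT, which gave no member past the threshold in edgeR, where 140 genes were higher (1%) and 359 lower (2.58%). At an unadjusted p under 0.05 there were 8 members (24.4% of all genes), limma-trend called 0, and DESeq2 called Hmgcs1, Sqle, Lss, Elovl6 and Me1 higher (5.53% of all genes) and Scd1 lower (7.32%). Groups did not overlap in 9 higher members (18.5% of all genes) and 4 lower ones (19.4%), and with replicate 3 alone in 13 higher members (44%) and 17 lower ones (41%). Scd1 was at 16.6, 2.79 and 15.1 CPM in MN1_WT, against 27.7, 50.2 and 132 CPM in aged_WT (log2 fold change -2.60 ± 0.72, adjusted p = 0.0698). Elovl6 was at 31.6, 117 and 22.9 CPM in MN1_WT against 20.1, 17.5 and 14.6 CPM in aged_WT (1.71 ± 0.51, adjusted p = 0.0805), and Me1 at 0.613, 51.9 and 0.831 CPM in MN1_WT against 0.795, 1.26 and 0.967 CPM in aged_WT (4.13 ± 1.47, adjusted p = 0.127). In all 3 genes replicate 3 stood apart from replicates 2 and 4 of MN1_WT. With replicate 3 as the only MN1_WT library, Lss, Elovl6 and Me1 were higher (adjusted p = 0.0314, 0.000498 and 0.00153) and Scd1 lower (adjusted p = 0.0214) where 11.5% of all genes were higher and 5.28% lower, the lone library again being assumed to vary as the others did. Srebf2 (-0.13 ± 0.19), Insig1 (0.11 ± 0.22), Msmo1 (0.08 ± 0.25) and Idi1 (0.32 ± 0.22) did not pass. On library totals the median of all genes was 0.22.

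Other genes of these pathways, outside the 37, were read in the same fits. Of 25 other sterol genes, 24 were tested, and 7 were higher (29.2%, against 15.6% of all genes) and 2 lower (8.33%, against 15.8%) in aged_KO than in aged_WT (median 0.14). The lipoprotein receptor gene Lrp8 averaged 58.6 ± 10.3 CPM in aged_KO against 28.4 ± 3.75 CPM in aged_WT, the dolichol synthesis gene Dhdds 104 ± 5.77 CPM in aged_KO against 71.6 ± 7.44 CPM in aged_WT, and the cholesterol esterifying enzyme gene Soat1 165 ± 22 CPM in aged_KO against 106 ± 14.6 CPM in aged_WT (SD, n = 3 each; edgeR adjusted p = 0.00152, 0.00486 and 0.00772). Of 27 other fatty acid genes, 25 were tested, and 9 were higher (36%, against 15.6% of all genes) and 4 lower (16%, against 15.8%) in aged_KO (median 0.22). The triglyceride synthesis gene Dgat2 averaged 155 ± 7.52 CPM in aged_KO against 75.2 ± 5.52 CPM in aged_WT, and G6pdx, which supplies NADPH, 1236 ± 66.6 CPM in aged_KO against 510 ± 89.5 CPM in aged_WT. Gpam, the first enzyme of glycerolipid synthesis, fell to 6.75 ± 0.861 CPM in aged_KO, against 13.6 ± 0.876 CPM in aged_WT (SD, n = 3 each; edgeR adjusted p = 0.000354, 0.000781 and 0.00218 for the 3 genes). In MN1_KO against MN1_WT, 0 genes of either list passed (medians 0.10 for sterol and -0.08 for fatty acid genes), and likewise 0 without MN1_WT replicates 2 and 4 (medians 0.09 and 0.18). In MN1_WT against aged_WT 0 passed when all libraries labelled MN1_WT were used (medians -0.01 and 0.12). That 0 did not hold for either list with replicate 3 as the only MN1_WT library. Calls of that fit are not counted here, because a lone library shows no spread of its own. Its medians were -0.17 for sterol and -0.21 for fatty acid genes, against 0.02 over all genes. In MN1_KO against aged_KO, 1 sterol gene was higher (4.17%, against 21.1% of all genes) and 4 lower (16.7%, against 16.8%), with a median of -0.11. Of the fatty acid genes, 5 were higher (20%, against 21.1% of all genes) and 8 lower (32%, against 16.8%), with a median of -0.16.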

How the data were processed

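The authors deposited, for each library, expected counts per gene symbol with TPM and FPKM values. Per the submitters' processing notes the tools were RSEM 1.2.28 and Bowtie2 2.3.4.3 on build mm10, and the gene annotation is not given in the sources used here. RSEM shares reads between similar genes, so 5.2 to 6.84% of the genes of a library had expected counts with decimals. These were rounded, genes were kept by filterByExpr, and edgeR 4.0.16 in R 4.3.3 (TMM, robust quasi-likelihood F test) gave p-values, adjusted over all genes tested by Benjamini-Hochberg with 0.05 as the threshold. The knockout comparisons used the 6 libraries of 1 table, and the remaining contrasts a fit of all 12 libraries with 4 group means. SE is the log2 fold change over the square root of F. Printed CPM use the TMM factors of the 12-library fit. The authors' deposited TPM values, which are per length, served to compare genes. No replicates of 1 group agreed within sampling noise (chi-square per degree of freedom 16.9 or more). The fits were also run on simulated counts with known changes and the same preset spread for every gene. That spread was not taken from these libraries, so the runs do not show how the fits perform on them. The alternatives were DESeq2 1.42.0, limma-trend (limma 3.58.1, prior count 2), DESeq2 size factors, library totals, no filter, a stricter filter (CPM of 1 in 3 libraries), leaving out each library, and a fit of all 12 libraries. The members and lists were chosen with earlier results of these data known. By rule, values in every library were given for the members past the threshold without MN1 with the 10 smallest adjusted p, up to 8 past it in each other comparison, Srebf1, Srebf2, Insig1, Scd1, Scd2, Abca1, Abcg1, and the highest and lowest by mean CPM, and of each other list the 3 genes with the smallest adjusted p without MN1 were named. Values of Me1 in every library were added after they were seen. Some genes of the pathway are not reported here.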

Additional observations from a re-analysis of the deposited data

Results flagged for a closer look

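The knockout effect differed between the 2 experiments, by the contrast of MN1 marrow minus aged marrow in the fit of all 12 libraries, in 8 of the 37 members and in 2 genes of the other lists. The differences on the log2 scale were -2.73 for Hsd17b7, -1.95 for Fdps, -1.86 for Msmo1, -1.67 for Sqle, -1.58 for Idi1, -1.58 for Insig1, -1.49 for Hmgcs1 and -1.30 for Srebf2 (edgeR adjusted p = 0.0233 to 0.0499), none of which passed in every fit that left out 1 library. Without MN1_WT replicates 2 and 4 none of the 8 passed, and their differences ran from -2.17 to -0.90. Of the other lists, Lbr, a sterol reductase of the nuclear envelope, gave -1.45 (adjusted p = 0.0278), and -0.89 (adjusted p = 0.195) without MN1_WT replicates 2 and 4. Gpam gave 4.61 (adjusted p = 0.00506), and 3.74 (adjusted p = 0.00338) without those libraries, with means of 394 ± 57.8 CPM in MN1_KO and 32.6 ± 22.4 CPM in MN1_WT, and of 6.75 ± 0.861 CPM in aged_KO and 13.6 ± 0.876 CPM in aged_WT (SD, n = 3 each).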

How the results depend on the processing

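No paired analysis was possible because the groups compared share no replicate number. In aged_KO against aged_WT, 17 members passed, with 12 on library totals without TMM (an alternative chosen after seeing the data), 1 when all 12 libraries set the spread, and 9 to 15 without 1 library. In MN1_KO against MN1_WT, 0 passed in edgeR, with 6 in DESeq2, 6 when all 12 libraries set the spread, and 0 to 7 without 1 library. For the difference of the knockout effects, 8 passed, with 15 in DESeq2, 5 on library totals, 0 without MN1_WT replicates 2 and 4 together, and 0 to 19 without 1 library. In MN1_WT against aged_WT, 0 passed in edgeR, with 6 in DESeq2 and 0 to 6 without 1 library. Without MN1_WT replicates 2 and 4 together its median was -0.07 over members and 0.02 over all genes. In MN1_KO against aged_KO, 17 passed, with 11 on library totals and 8 to 21 without 1 library. The share of all genes that passed shifted too. In the main fits it was 31.4% in aged_KO against aged_WT, 0% in MN1_KO against MN1_WT and 3.32% for the difference. It was 3.58% in MN1_WT against aged_WT and 37.9% in MN1_KO against aged_KO. On library totals it was 34.7% in aged_KO against aged_WT, 4.05% for the difference and 48.1% in MN1_KO against aged_KO. In DESeq2 it was 4.18% in MN1_KO against MN1_WT, 12.1% for the difference and 12.9% in MN1_WT against aged_WT. Without 1 library it ran from 18.6 to 35.2% in aged_KO against aged_WT and from 0 to 6.49% in MN1_KO against MN1_WT. For the difference it ran from 0.372 to 23.6%, in MN1_WT against aged_WT from 0.548 to 12.5%, and in MN1_KO against aged_KO from 17.7 to 52%. With all 12 libraries it was 5.87% in aged_KO against aged_WT and 3.33% in MN1_KO against MN1_WT. The log2 fold change of Me1 in MN1_KO against MN1_WT reversed: it was -0.30 with all libraries and ran from -0.87 to 4.28 without 1 library, the value of 4.28 being that without MN1_WT replicate 3. The cause of these shifts was not tested, other than that fits without a library hold fewer samples. The other scalings and filters run, DESeq2 size factors, no filter and the stricter filter, left each count within 1.5 times. Me1 rests on 1 to 26 counts in the aged libraries, which limits its precision.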

Other observations

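Me1 and Elovl6 were read across all libraries beside Mn1, as values with no test and with libraries not grouped by label. The 4 libraries with Mn1 at 22.2 CPM or more were the 3 MN1_KO libraries and MN1_WT replicate 3. Me1 was at 17.4, 20.3, 4.23 and 51.9 CPM in them, and at 0.0602 to 1.26 CPM in the other 8 libraries. Elovl6 was at 72.2, 97.7, 53.8 and 117 CPM in those 4 libraries, and at 12.6 to 31.6 CPM in the other 8. Scd1 was at 3.68, 10.1, 7.07 and 2.79 CPM in the same 4 libraries, but also at 3.31 to 8.25 CPM in aged_KO, where Mn1 was at 0.0859 to 0.212 CPM.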
